A study of Mus musculus with 25 samples.

Results

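The 48 genes of glutathione metabolism were followed gene by gene in mouse *soleus*, the slow postural muscle of the calf, in WT mice and in mice lacking *Dnmt3a* in muscle (KO), at rest and 60 min after running. The genes were taken by symbol from the RNA count table, which lists 52636 genes, and all 48 were found. They comprise the genes that make, recycle or break down glutathione, the peroxidases, the transferases in their classes, and the glutaredoxins. No measured value was used to choose them, although they were chosen with earlier results from these same mice known. After a filter on low counts 39 of the 48 could be tested, out of 16340 genes tested in all.

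Glutathione is a small thiol peptide built from glutamate, cysteine and glycine, with glutamate-cysteine ligase (*Gclc* and *Gclm*) setting the pace and *Gss* adding the last residue. Peroxidases spend it to remove hydrogen peroxide and lipid peroxides, glutaredoxins use it to repair oxidized protein thiols, and *Gsr* returns the oxidized form to the reduced one with NADPH. Transferases couple it to reactive electrophiles such as lipid aldehydes and foreign compounds. Many of these genes are known targets of NRF2 (*Nfe2l2*), the transcription factor that answers oxidative stress, and contracting muscle is a known source of oxidants.

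The 25 libraries came from 12-week-old C57BL/6 mice of both sexes, 1 *soleus* per library, in 4 groups. WT mice carried Dnmt3a flox/flox without Cre, and KO mice carried Dnmt3a flox/flox with the mCK-Cre transgene, in which a muscle creatine kinase promoter drives Cre and so leaves *Dnmt3a* intact in cells that do not use that promoter. Both genotypes therefore share the floxed allele, and only KO mice carry Cre. Exercised mice ran for 30 min at 16 m/min and 5% incline and were killed 60 min later, and resting mice spent the same time on a sham treadmill. There were 5 WT mice at rest, 7 WT mice after exercise, 7 KO mice at rest and 6 KO mice after exercise, made up of 13 males and 12 females.

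Libraries held 22671457 to 37431801 counted reads. *Dnmt3a* lay between 93.4 and 130.5 CPM (counts per 1e+06 reads, scaled by TMM) in WT mice and between 34.5 and 53.9 CPM in KO mice, without overlap; reads outside the floxed exon 19 count as well. The muscle markers *Acta1*, *Ckm*, *Myh7*, *Myh2* and *Tnnt1* were abundant in every library. The library of KO mouse 15, a resting male, had the fewest reads and the most ribosomal RNA, with 7.92% of its reads on nuclear ribosomal RNA genes against at most 0.118% elsewhere and 31.6% on mitochondrial ribosomal RNA genes against at most 13.0%, and a TMM factor of 0.63. Leaving that library out lost *Glrx5* and gained *Gpx1* among the members that differed between the sexes, and changed no other call on a member in the comparisons tested. The library of KO mouse 7, also a resting male, had the highest summed level of fibroblast markers, at 4301 CPM against at most 2637 elsewhere, and the highest sums of macrophage and immune markers (121 CPM) and of blood markers (380 CPM), so *Gpx7*, *Gpx1*, *Gpx8* and *Hpgds* are given without it as well.

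Measured per length of exon (RPKM, CPM per kilobase), the tested members ran from 0.144 RPKM for *Mgst2* to 174 RPKM for *Mgst3*. *Mgst3*, a membrane-bound transferase and peroxidase of lipid hydroperoxides, stood highest at 174 ± 17.1 RPKM (SD, n = 25 mice). *Gpx4*, which reduces peroxidized phospholipids in membranes, came next at 79.9 ± 7.16 RPKM. These levels stood further apart than their spread over mice. *Gstp1*, *Gsto1* and *Gstm1*, transferases of the pi, omega and mu classes, followed at 57.6 ± 4.67, 51.2 ± 5.75 and 48.8 ± 7.02 RPKM, levels that did not separate from one another beyond their spread. *Gpx1*, *Gstk1*, *Mgst1*, *Gstm5* and *Gpx3* formed a further run between 28.1 and 30.3 RPKM.

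The genes that supply glutathione were less abundant per length than the leading peroxidases and transferases. *Gclc* stood at 4.08 ± 0.698 RPKM, *Gss* at 1.64 ± 0.228 and *Gclm* at 1.59 ± 0.148, and *Gsr* at 9.18 ± 0.65 RPKM. Among the genes of breakdown *Oplah*, which opens the ring of 5-oxoproline, led at 16.0 ± 2.61 RPKM. The leading member of the theta class was *Gstt1* at 3.37 ± 0.782 RPKM, and of the glutaredoxins *Glrx5*, a mitochondrial protein of iron-sulfur cluster assembly, at 13.1 ± 1.39 RPKM. *Gsta4*, which handles the lipid aldehyde 4-hydroxynonenal, led the alpha class at 16.3 ± 1.81 RPKM. The remaining tested members fell into 3 bands. *Gstp2*, *Gstm2*, *Glrx3* and *Gpx8* stood between 10.9 and 19.7 RPKM. *Gstz1*, *Chac2*, *Chac1*, *Gstm7*, *Gstm4*, *Gpx7*, *Glrx2*, *Glrx* and *Gstt2* stood between 1.07 and 9.76 RPKM, among which *Chac1* varied most, at 7.57 ± 4.85 RPKM. *Ggct*, *Gstt3*, *Ggt5*, *Ggt7*, *Gsto2*, *Gsta3*, *Hpgds* and *Mgst2* stood between 0.144 and 0.896 RPKM.

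**Figure D1:**
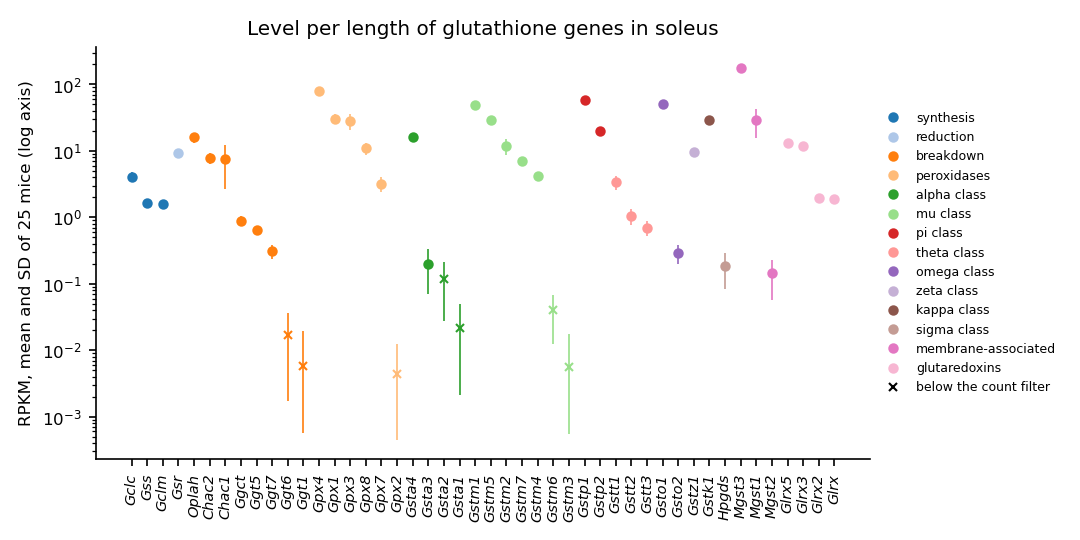
Level per length (RPKM, log axis) of the 46 members with any read, as mean and SD of 25 mice, coloured by role; crosses mark members below the count filter, and lower bars longer than the mean are cut short. *Mgst3* at 174 RPKM and *Gpx4* at 79.9 RPKM stand highest.

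The other 9 members were too low to test: *Gpx5* and *Gpx6* had no read in any library, and *Gpx2*, *Gstm3*, *Ggt1*, *Gsta1*, *Ggt6*, *Gstm6* and *Gsta2* had at most 14 reads in any library. *Gpx2* is the gut peroxidase and *Gsta1* and *Gsta2* are known from liver. Of the 31-base words of their transcripts, 92.9% in *Gsta1*, 60.7% in *Gsta2* and 37.7% in *Gstm3* also occur in another gene, so their low counts may leave out reads that fit more than 1 gene. Reads of *Gstp1* and *Gstp2* can be split between the pair, since 38.5% of the 31-base words of *Gstp1* and 60.3% of those of *Gstp2* also occur in another gene, mainly each other. The same holds for *Gpx4* (38.9%, mainly a pseudogene) and *Gstm1* (28.8%), while *Gstt3* shared 14%, mainly with *Gm20441*, *Gstm2* 12.2%, *Gstt2* 3.73%, *Hpgds* 2.62% and *Mgst1* and *Chac1* 0%. On its own strand *Gstt3* shares 524 exonic bases with *Gm20441*, which had 3 reads over all libraries, and *Gclm* shares 244 with *Gm6061*, which had 0. The strand setting of the counting was not stated, and *Gss*, *Ggt7*, *Oplah*, *Gstm5*, *Gstz1* and *Gclm* overlap exons of a gene on the opposite strand.

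The first comparison asked whether loss of *Dnmt3a* changed these genes. Most members lay within the spread between mice, and the transferase *Gstm2* had the lowest p-value among them, with every KO mouse below every WT mouse of its own sex although over pooled sexes edgeR did not call it and DESeq2 did. In the test of the genotype main effect with edgeR over the 4 groups, 0 of the 39 members passed an adjusted p of 0.05, against 0.269% of all genes tested. At an unadjusted p under 0.05 there were 7 members, beside 6.23% of all genes. Of these 7, 5 were transferases, all lower in KO (*Gstm2*, *Gstm1*, *Gstp2*, *Gstt1* and *Gstt3*), and 2 were peroxidases, both higher (*Gpx1* and *Gpx7*).

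*Gstm2* is a cytosolic transferase of the mu class known for high expression in muscle. It lies on the reverse strand at chr3:107981702-107986453 (mm10) in the cluster of mu class genes. In WT mice at rest its levels were 28.4 and 24.8 CPM in the 2 females and 18.7, 20.0 and 20.2 CPM in the 3 males. WT mice after exercise ranged from 18.1 to 34.3 CPM with a median of 24.1, KO mice at rest from 13.6 to 22.1 CPM with a median of 15.6, and KO mice after exercise from 11.6 to 23.9 CPM with a median of 15.8. Genotypes overlapped in these pooled groups, in which females stood above males.

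Within each sex the genotypes did not overlap. The 6 WT females ranged from 24.1 to 34.3 CPM (median 27.4) and the 6 KO females from 17.3 to 23.9 CPM (median 19.3). The 6 WT males ranged from 18.1 to 20.2 CPM (median 19.3) and the 7 KO males from 11.6 to 15.6 CPM (median 13.7). Every KO mouse was thus below every WT mouse of its own sex. Of the 16340 genes tested, 2 were lower in KO without overlap in both sexes, *Dnmt3a* itself and *Gstm2*, which is 0.0122% of genes. Another 11 genes were higher in KO without overlap in both sexes, and this count was made after *Gstm2* had been seen.

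The fold change of *Gstm2* in KO against WT was -0.49 ± 0.12 on the log2 scale (SE), with an adjusted p of 0.104 in edgeR. With sex as an additive term the value was -0.48 ± 0.06 and the adjusted p 2.47e-05, in a fit that called 0.441% of all genes. DESeq2, which called 0.496%, gave an adjusted p of 0.0155, and limma-voom, which called 0.257%, gave 0.105. In males alone the fold change was -0.49 ± 0.06 with an edgeR adjusted p of 0.00413, and in females alone -0.47 ± 0.11 with an adjusted p of 0.492. The test of a different genotype effect between the sexes gave -0.03 ± 0.13 with an adjusted p of 1.00 in edgeR. Leaving out KO mouse 23, the female with 23.9 CPM, moved the call across the threshold (edgeR adjusted p = 0.021). No other fit that left out a mouse did so. Their edgeR adjusted p-values ran from 0.0614 without KO mouse 24 to 0.241 without WT mouse 1, where the fold change was -0.44.

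At rest, where 0 of 39 members passed and 0.0918% of all genes did, *Gstm2* differed by -0.41 ± 0.17, and after exercise, where 0 passed and 0.11% of all genes did, by -0.57 ± 0.17. With sex as a term those edgeR adjusted p-values were 0.029 and 0.00144. The number of members at an unadjusted p under 0.05 was 2 at rest, beside 3.65% of all genes, and 5 after exercise, beside 5.51% of all genes. The interaction of genotype and exercise called 0 members and 0% of all genes in edgeR, and 0 members at an unadjusted p under 0.05 beside 2.47% of genes. DESeq2 and limma-voom also called 0 members at rest, after exercise and for the interaction.

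Since *Dnmt3a* methylates cytosines at CpG, the bases upstream of *Gstm2* are shown with each CpG in capitals. Methylation of these bases was not examined here, and its part in the *Gstm2* values was not tested. The stretch runs 5′ to 3′ on the gene's strand, from RefSeq on GRCm38.p6 (mm10), at chr3:107986454-107986670, and ends where the gene of the count table begins. It holds 2 CpG in 217 bases. In the 250 bases before the RefSeq start *Gstm2* had 3 CpG, and the median over all RefSeq promoters in windows of that length was 6.
Gstm2 upstream: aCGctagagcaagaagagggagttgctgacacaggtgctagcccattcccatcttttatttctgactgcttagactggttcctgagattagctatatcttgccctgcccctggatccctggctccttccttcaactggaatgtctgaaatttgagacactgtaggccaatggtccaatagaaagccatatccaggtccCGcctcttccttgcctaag

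**Figure D2:**
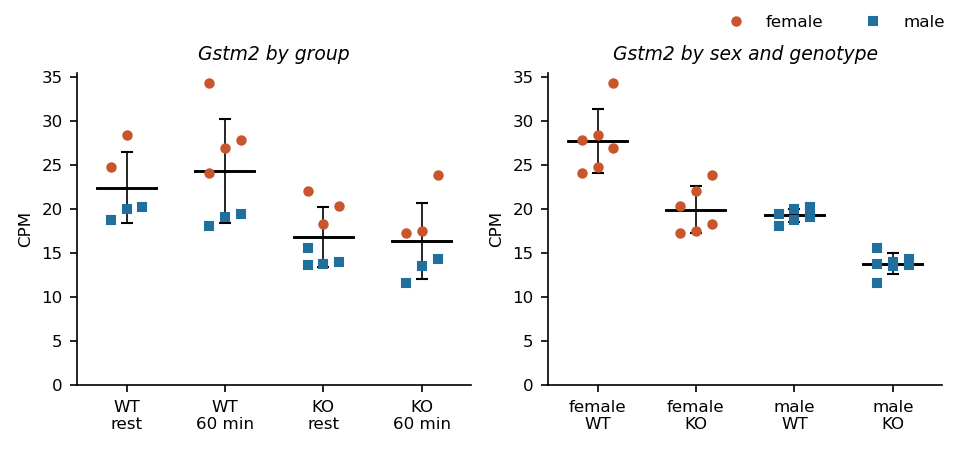
*Gstm2* in CPM for each of the 25 mice, by group on the left and by sex and genotype on the right; bars are mean and SD, circles females and squares males. KO females (17.3 to 23.9 CPM) lie below WT females (24.1 to 34.3 CPM), and KO males (11.6 to 15.6 CPM) below WT males (18.1 to 20.2 CPM).

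Over the transferase classes 18 of 20 tested members had a fold change below 0 in KO, with a median of -0.12 on the log2 scale, beside a median of 0.01 over all genes, of which 7607 of 16340 were below 0. The 5 tested peroxidases split into 1 below and 4 above 0. These counts describe genes that share libraries and were taken up with results of these mice known, so they are not independent evidence of a direction. *Gstm1*, of the same cluster as *Gstm2* and the most abundant member of its class, differed by -0.17 ± 0.08, and *Gstt1*, which metabolizes small halogenated compounds, by -0.26 ± 0.11, neither passing the adjusted threshold. Fold changes of similar size to that of *Gstm2*, with larger errors, were -0.54 ± 0.36 for *Gsta3* and -0.47 ± 0.30 for *Mgst2*, both low genes and neither called. The synthesis genes *Gclc*, *Gclm* and *Gss* lay between 0.04 and 0.06, and the glutaredoxins between -0.07 and 0.05.

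Of the peroxidases *Gpx7*, a peroxidase of the endoplasmic reticulum, stood at 3.28, 3.43, 3.39, 3.49 and 3.41 CPM in resting WT mice, whereas the 7 resting KO mice ranged from 3.43 to 7.84 CPM with a median of 5.02. The resting WT values were close together, 6 of the 7 resting KO values were above all of them, and the highest was mouse 7, a male. After exercise the WT mice spread more widely, from 2.69 to 5.28 CPM. The exercised KO mice ranged from 3.53 to 4.96 CPM, within the WT range. The summed level of 5 fibroblast markers ranged from 850 to 4301 CPM in resting KO mice, where mice 7, 21 and 24 had the highest *Gpx7* and the highest sums (4301, 2637 and 2242 CPM of markers) and mouse 15 the lowest of both (850 CPM). The sum ranged from 1085 to 2161 CPM in resting WT mice, 0 of the 5 were called by genotype in edgeR, all had reads in every library, and their part in the *Gpx7* values was not tested. The fold change of *Gpx7* at rest was 0.59 ± 0.17 (unadjusted p = 0.00145 and adjusted p = 0.53 in edgeR) and 0.45 ± 0.15 (adjusted p = 0.84) without mouse 7, and over both conditions 0.37 ± 0.11 with an adjusted p of 0.32. *Gpx1*, the abundant cytosolic peroxidase of hydrogen peroxide, had means of 39.3 ± 7.44 CPM in WT and 46.8 ± 10.4 CPM in KO at rest, and 40.6 ± 3.74 and 47.4 ± 5.53 CPM after exercise (SD). Its genotype difference was 0.24 ± 0.09 with an edgeR adjusted p of 0.57. The highest *Gpx1* of the 25 was that of mouse 7, at 63.4 CPM, and without it the difference was 0.19 ± 0.08 (adjusted p = 0.769). Of the lists of other cell types only *Pax7* among the satellite cell markers was called by genotype (0.48 ± 0.11, edgeR adjusted p = 0.0384). *Myf5* and *Calcr* of the same list had resting means of 2.07 and 0.923 CPM in WT and 2.06 and 0.988 CPM in KO. After exercise they stood at 1.43 and 1.08 CPM in WT and 1.57 and 0.949 CPM in KO. The paper names *Pax7* a putative DNMT3A target, with less methylation in KO muscle. The part of *Pax7* in these values was not tested.

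The next comparison asked which members respond to exercise. By 60 min after the run 4 of the 39 members had fallen in edgeR, *Gstt2*, *Gstt3*, *Chac1* and *Hpgds*, and 0 had risen. Over all genes 10.4% were called in either direction, so the share of members called is near that of all genes, and 4.69% were lower after exercise. The theta class accounted for 2 of the 4, with 2 of its 3 members called. The synthesis genes, *Gsr*, the peroxidases and the glutaredoxins gave 0 calls.

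*Gstt2*, a theta class transferase, fell in WT without overlap between conditions. At rest the 5 WT mice stood at 5.40, 5.35, 4.96, 5.59 and 6.85 CPM, and after exercise the 7 WT mice ranged from 3.49 to 4.30 CPM with a median of 3.70. KO mice ranged from 3.70 to 6.66 CPM at rest (median 5.41) and from 2.44 to 4.30 CPM after exercise (median 3.21), with some overlap. The fold change was -0.62 ± 0.10 over both genotypes (edgeR adjusted p = 5.84e-05), -0.58 ± 0.14 in WT (adjusted p = 0.0144) and -0.66 ± 0.14 in KO (adjusted p = 0.00263). *Gstt2* was the only member whose WT conditions did not overlap, beside 1.18% of all genes that were lower in this way. Leaving out WT mouse 20, a resting female with 6.85 CPM, gave an adjusted p of 0.0794 in WT.

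*Gstt3*, a further theta class gene on chromosome 10, stood at 3.46, 2.52, 3.42, 2.62 and 3.93 CPM in WT at rest and between 2.08 and 3.57 CPM after exercise (median 2.50). In KO it ranged from 2.29 to 3.78 CPM at rest (median 2.99) and from 1.57 to 2.65 CPM after exercise (median 1.81), so that 5 of the 6 exercised KO mice were below every resting KO mouse and mouse 23 was not. Its fold change was -0.49 ± 0.11 (edgeR adjusted p = 0.00246), -0.71 ± 0.15 in KO (adjusted p = 0.00351) and -0.27 ± 0.15 in WT (adjusted p = 0.535). The difference between genotypes in that response was -0.44 ± 0.22 with an adjusted p of 1.00, so it was not shown to differ. *Gstt1*, the more abundant member of the class, had a fold change of -0.06 ± 0.11 and was not called. *Gstt2* and *Gstt3* lie at chr10:75831114-75837424 and chr10:75774115-75781414 (mm10, reverse strand), on either side of *Gstt1*.

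*Chac1* breaks down reduced glutathione in the cytosol and is a known target of ATF4, the factor of the integrated stress response. Its levels at rest were uneven: 38.1, 12.1, 8.94, 7.19 and 10.5 CPM in WT and from 5.21 to 29.5 CPM in KO (median 16.3). After exercise it stood between 4.86 and 12.5 CPM in WT (median 8.03) and between 5.97 and 11.0 CPM in KO (median 8.37). In KO 6 of the 7 resting mice were above every exercised mouse, and in WT only mouse 1 was. The fold change was -0.92 ± 0.26 (edgeR adjusted p = 0.0181). Without mouse 1, the WT female with 38.1 CPM, it was -0.59 ± 0.21 with an adjusted p of 0.078, and limma-voom gave -0.75 ± 0.27 with an adjusted p of 0.0815. Fitted by sex, males gave -0.58 ± 0.29 and females -1.30 ± 0.33, neither called by edgeR. Its sister *Chac2*, which acts on glutathione more slowly, had a fold change of -0.10 ± 0.11.

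The 250 bases before each RefSeq start were searched on both strands for TGATGNAA, the core of the element bound by ATF4 with C/EBP factors. *Chac1* was the single member of the 42 with a RefSeq promoter to hold it, and 3.91% of all 27025 genes searched did. The match is in capitals, on the reverse strand, in chr2:119351039-119351066 (GRCm38.p6), and its first base lies 193 bases before the start.
Chac1: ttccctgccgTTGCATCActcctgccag

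*Hpgds*, the sigma class transferase that makes prostaglandin D2 and is known from mast cells and other immune cells, was low throughout, with 15 to 136 reads per library. It stood at 1.04, 1.04, 1.51, 1.67 and 1.53 CPM in WT at rest and between 0.567 and 1.05 CPM after exercise (median 0.851). In KO it ranged from 0.755 to 3.47 CPM at rest (median 1.51) and from 0.498 to 1.37 CPM after exercise (median 0.747). The fold change was -0.92 ± 0.20 (edgeR adjusted p = 0.00257), with -1.19 ± 0.28 in KO (adjusted p = 0.00895) and -0.65 ± 0.29 in WT (adjusted p = 0.33). In males alone (-0.95 ± 0.31, adjusted p = 0.0954) and in females alone (-0.88 ± 0.28, adjusted p = 0.151) *Hpgds* was not called, nor was it in KO males (adjusted p = 0.119) or KO females (adjusted p = 0.374). Of the 4 mast cell markers 0 were called after exercise, and their summed level ranged from 9.08 to 16.9 CPM in WT at rest, 6.92 to 20.2 after exercise, 4.07 to 27.1 in KO at rest and 2.59 to 18.5 after exercise. All 4 had reads in every library. Of the 5 macrophage and immune markers 0 were called either, with sums of 54.2 to 78.6, 35.7 to 84.3, 37.7 to 121 and 24.1 to 108 CPM in the same order and reads of each in every library. Among the resting KO mice the 4 with the highest *Hpgds*, mice 7, 21, 8 and 24, were also the 4 with the highest immune sums, at 75.7 to 121 CPM against 37.7 to 39.2 CPM in the other 3. The other groups did not share this order. Resting WT mouse 11 had the lowest *Hpgds* of its group (1.04 CPM) with an immune sum of 68.6 CPM. Exercised WT mouse 5 had the highest sum of its group (84.3 CPM) with *Hpgds* at 0.719 CPM. Among exercised KO mice the highest sum was in mouse 19 and the highest *Hpgds* in mouse 23. The lowest of both lay in the same mouse in each exercised group, WT mouse 4 and KO mouse 6. The part of these cells in the *Hpgds* values was not tested. Without mouse 7, the highest at 3.47 CPM, the fold change of *Hpgds* was -0.80 over both genotypes (edgeR adjusted p = 0.00382) and -0.95 in KO (adjusted p = 0.0272).

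**Figure D3:**
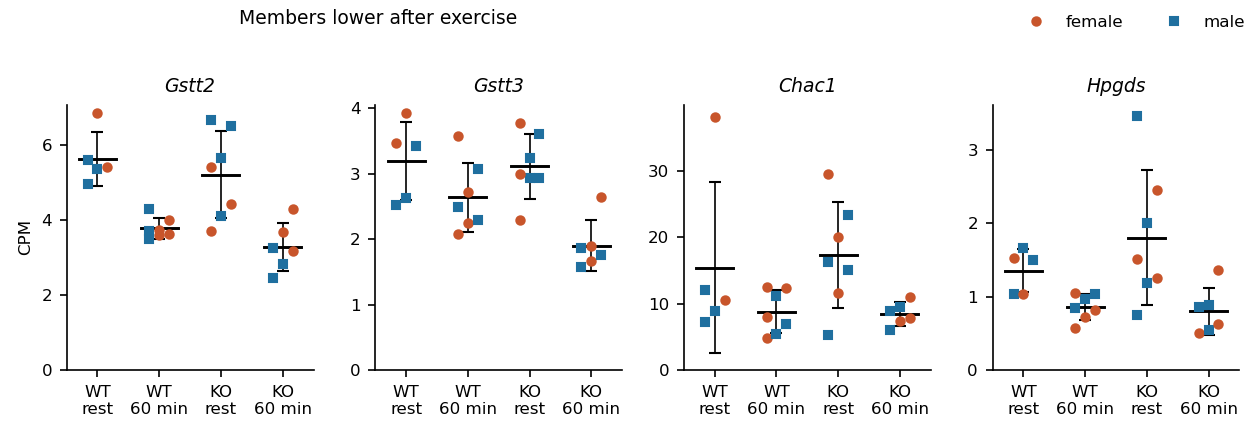
*Gstt2*, *Gstt3*, *Chac1* and *Hpgds* in CPM for each mouse by group, with mean and SD; circles are females and squares males. Resting WT mice (4.96 to 6.85 CPM) lie above exercised WT mice (3.49 to 4.30 CPM) for *Gstt2*, and the resting *Chac1* values spread up to 38.1 CPM.

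Within genotypes, 1 of 39 members was lower after exercise in WT, *Gstt2*, beside 1.43% of all genes, and 3 of 39 in KO, *Gstt2*, *Gstt3* and *Hpgds*, beside 2.33% of all genes. Markers of other cells also fell after exercise: 3 of 4 endothelial markers (log2 fold changes of -0.58 for *Kdr*, -0.35 for *Tek* and -0.23 for *Cdh5*) and 2 of 3 satellite cell markers (-0.46 for *Myf5* and -0.45 for *Pax7*), all called by edgeR. The summed endothelial level ranged from 315 to 417 CPM in WT at rest, 260 to 344 after exercise, 305 to 396 in KO at rest and 275 to 329 after exercise. The summed satellite cell level ranged from 6.52 to 9.28, 5.07 to 7.14, 7.68 to 11.1 and 6.38 to 8.98 CPM in the same order, and every marker in these lists had reads in every library. Their part in the falls of the 4 members was not tested. In whole muscle, fewer cells of a type and less RNA per cell cannot be told apart.

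The members that supply glutathione had small differences after exercise. *Gclc*, the catalytic subunit of the ligase, had means of 14.4 ± 1.7 CPM at rest and 15.8 ± 1.71 CPM after exercise in WT, and 14.4 ± 1.49 and 16.8 ± 4.45 CPM in KO (SD), with a fold change of 0.17 ± 0.08 (edgeR adjusted p = 0.228). The exercised KO mean and the fold change include mouse 17, at 25.6 CPM, where the next exercised KO mouse stood at 16.6 CPM. *Gclm*, the modifier subunit, had a fold change of -0.10 ± 0.05 (edgeR adjusted p = 0.255). *Mgst3* and *Gpx4*, the highest members, had fold changes of -0.01 ± 0.06 and 0.02 ± 0.06. The tested peroxidases all lay between -0.08 and 0.03, the mu class between -0.03 and 0.03, and the glutaredoxins between -0.12 and 0.02.

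Both sexes were sampled in every group, so sex was compared with genotype and exercise held equal. Of the 39 members 8 differed between males and females in edgeR, 4 higher in males and 4 higher in females. The same test called 8.65% of all genes, 5.04% higher in males and 3.6% higher in females. *Mgst1* was higher in males, and so were *Chac2*, *Glrx5* and *Glrx* by less, while *Gstm2*, *Gpx3*, *Gpx8* and *Gstm7* were higher in females.

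*Mgst1*, a membrane-bound transferase of the endoplasmic reticulum and mitochondrial outer membrane, separated the sexes completely. The 12 females ranged from 22.0 to 45.1 CPM (median 33.0) and the 13 males from 59.9 to 111 CPM (median 81.4). Of all genes 0.19% were higher in males without overlap. The fold change was 1.28 ± 0.12 in males over females (edgeR adjusted p = 3.07e-07). It ranged from 1.23 to 1.36 with each mouse left out in turn. By genotype the means were 88.9 ± 12.6 CPM in WT males, 76.2 ± 18.8 in KO males, 39.0 ± 5.91 in WT females and 29.4 ± 7.52 in KO females (SD).

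*Gstm2* was lower in males, with a fold change of -0.53 ± 0.06 (edgeR adjusted p = 1.17e-05), and the sexes did not overlap within WT or within KO, as 0.116% of all genes were higher in females in this way. The mean was 27.7 ± 3.65 CPM in WT females, 19.9 ± 2.68 in KO females, 19.3 ± 0.786 in WT males and 13.8 ± 1.18 in KO males (SD). The values of KO females (17.3 to 23.9 CPM) and of WT males (18.1 to 20.2 CPM) overlapped. *Gstm7*, a further mu class gene of the cluster, had a fold change of -0.25 ± 0.06 (edgeR adjusted p = 0.0116), with females from 10.4 to 13.9 CPM (median 12.0) and males from 8.31 to 12.7 CPM (median 10.4).

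*Gpx3*, the secreted plasma peroxidase, ranged from 35.8 to 84.2 CPM in females (median 57.4) and from 34.4 to 55.5 CPM in males (median 42.8). The ranges overlapped, with 7 of 12 females above every male. The fold change was -0.52 ± 0.12 (edgeR adjusted p = 0.00728). *Gpx8*, a membrane peroxidase of the endoplasmic reticulum, ranged from 10.6 to 14.2 CPM in females (median 12.5) and from 7.76 to 15.6 CPM in males (median 8.84), with 11 of 13 males below every female. Mouse 7, the KO male with 15.6 CPM, was above every female. The fold change of *Gpx8* was -0.36 ± 0.09 (edgeR adjusted p = 0.0174), and without WT mouse 20 the adjusted p was 0.0524. Without mouse 7 the fold change was -0.44 (edgeR adjusted p = 9.77e-05).

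*Chac2* ranged from 7.63 to 11.5 CPM in females (median 8.92) and from 8.08 to 16.1 CPM in males (median 11.6), with a fold change of 0.31 ± 0.09 (edgeR adjusted p = 0.0288). It was not called without mouse 14, 20, 18 or 17. *Glrx5* had medians of 45.6 CPM in females and 50.3 in males and a fold change of 0.18 ± 0.06 (edgeR adjusted p = 0.0438). *Glrx*, the cytosolic glutaredoxin, had medians of 9.85 CPM in females and 11.0 in males and a fold change of 0.15 ± 0.04 (edgeR adjusted p = 0.0372). Both were close to the threshold: *Glrx5* kept its call without mouse 1, 2, 5, 7 or 9 and lost it in the other 20 fits that left out a mouse, and *Glrx* lost it without mouse 1, 2, 3, 10, 11, 12, 13, 16, 18, 19, 20, 23 or 25. Without WT mouse 20 the 8 calls became 4, *Mgst1*, *Gstm2*, *Gpx3* and *Gstm7*.

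**Figure D4:**
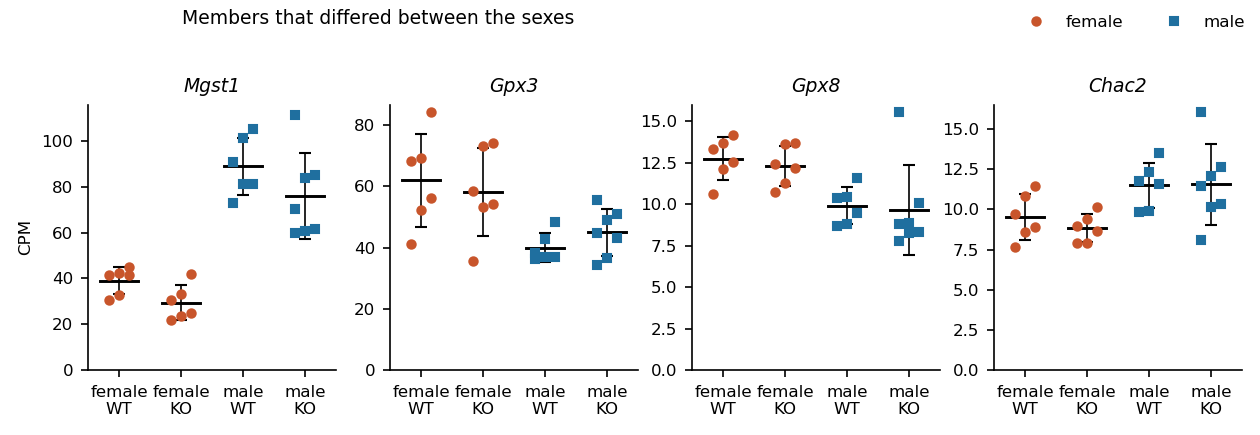
*Mgst1*, *Gpx3*, *Gpx8* and *Chac2* in CPM for each mouse by sex and genotype, with mean and SD; circles are females and squares males. *Mgst1* in females (22.0 to 45.1 CPM) lies below *Mgst1* in males (59.9 to 111 CPM), and the other 3 overlap.

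Fiber type markers moved with sex as well. All 5 slow fiber markers were higher in females, with *Myh7* at -0.51 in males over females, and 3 of 5 fast fiber markers were higher in males, with *Tnni2* at 0.41, all by edgeR. The summed slow fiber level ranged from 24510 to 40772 CPM in females and from 19750 to 25956 CPM in males, and the summed fast fiber level from 10509 to 19977 and from 12690 to 24582 CPM. None of these markers was at 0 in any library. *Pax7* (-0.31), *Cidea* (0.48) and the muscle genes *Ckm* and *Myh2* (both 0.30) were also called by sex. *Cidea* was listed under brown fat, where the other gene, *Ucp1*, had at most 2 reads in any library and was not tested. The part of the fiber type markers and of these genes in the 8 differences was not tested. The difference between the sexes in the response to exercise had 0 of 39 members called by edgeR, DESeq2 and limma-voom and 0 at an unadjusted p under 0.05, beside 0.0551% of all genes called by edgeR. The difference between the sexes in the genotype effect again had 0 of 39 by each tool and 0 unadjusted, beside 0% of all genes.

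**Figure D5:**
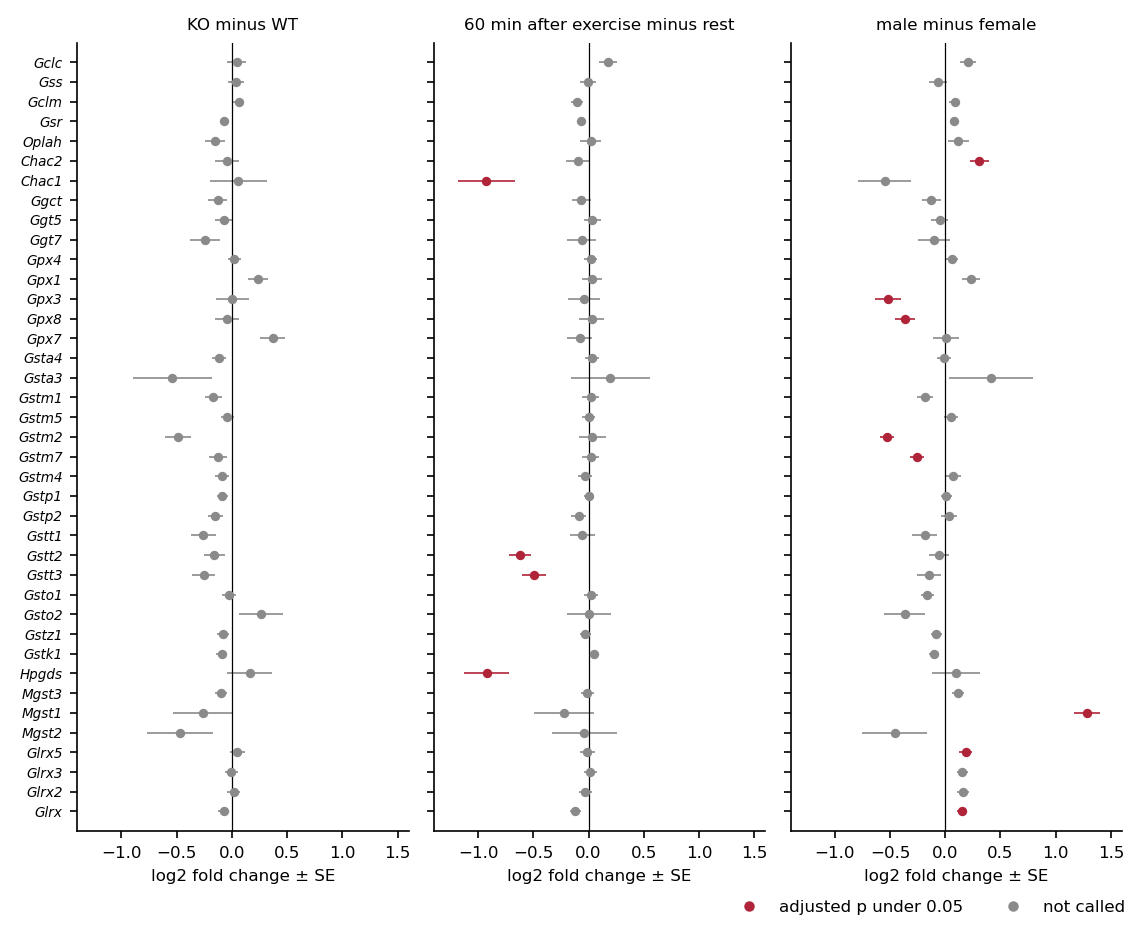
Log2 fold change ± SE from edgeR of the 39 tested members for KO minus WT, 60 min after exercise minus rest, and male minus female, in the order of roles; red marks an adjusted p under 0.05. There are 0 red points for genotype, 4 for exercise, all below 0, and 8 for sex, with *Mgst1* at 1.28 the farthest from 0.

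Around the members, 53 of 55 listed genes of cysteine supply, NADPH, the thioredoxin system and NRF2 control were found and 50 were tested. After exercise 5 of the 50 were called in edgeR, beside 10.4% of all genes, so the share called in either direction is near that of all genes. All 5 were higher, whereas 4.69% of all genes were called lower. *Nfe2l2*, which encodes NRF2, rose by 0.77 ± 0.08 on the log2 scale (adjusted p = 4.4e-08), from 53.8 ± 6.91 to 92.4 ± 10.2 CPM in WT and from 54.6 ± 3.75 to 92.3 ± 19.2 CPM in KO (SD). Its competitor *Bach1* rose by 0.42 ± 0.05, and *Srxn1*, which reactivates overoxidized peroxiredoxins, by 0.95 ± 0.21. *Slc3a2*, the heavy chain of the cystine transporter, rose by 0.47 ± 0.06, and *Mat2a*, which makes S-adenosylmethionine, by 0.36 ± 0.06. The NRF2 targets *Nqo1* and *Hmox1* had fold changes of 0.12 ± 0.12 and 0.33 ± 0.14 and were not called. All 7 genes of the NRF2 list had fold changes above 0, with 3 called, beside a median of -0.00088 over all genes. Since these genes share libraries, the count is not independent evidence of a direction. By genotype 0 of the 50 passed in edgeR, beside 0.269% of all genes, and 4 did at an unadjusted p under 0.05, beside 6.23% of all genes.

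*Srxn1* was also a related gene whose response differed between the sexes, with a rise larger in males by 1.04 ± 0.17 (edgeR adjusted p = 0.0165). In fits chosen after seeing the data, the call was kept by DESeq2 and limma-voom and lost in 3 of 25 fits that left out a mouse, without mouse 1 (adjusted p = 0.0779), 3 (0.0502) or 6 (0.0546), and the difference ranged from 0.96 to 1.15 over all 25. Between the sexes 10 of the 50 related genes differed, beside 8.65% of all genes. The peroxiredoxins *Prdx1*, *Prdx2*, *Prdx3*, *Prdx5* and *Prdx6*, with *Txnrd1*, *Srxn1* and *Ptges2*, were higher in males, and *Slc1a1* and *Cth*, of cysteine uptake and synthesis, were higher in females. The largest difference among the peroxiredoxins was that of *Prdx5*, at 0.32 ± 0.06.

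NRF2 binds the antioxidant response element, here searched as TGACNNNGC on both strands of the 250 bases before each RefSeq start (GRCm38.p6). It was found in 7 of the 42 members with a promoter, or 16.7%, against 11.5% of all 27025 genes searched. The 6 tested members with a match are printed because *Nfe2l2* rose after exercise while none of the 6 was called, and because 2 of them, *Mgst1* and *Gstm7*, differed between the sexes in opposite directions. Capitals mark the match. It reads in the gene's direction in *Gsta3*, *Gstm5* and *Gstm7* and on the other strand in *Gclm*, *Ggct* and *Mgst1*. In *Mgst1* and *Gstm7* the match lies before the RefSeq start but inside the GENCODE gene, which begins further upstream, and in the other 4 it lies outside the GENCODE gene. A match is a description of the letters and not of binding.
Gclm, chr3:122245413-122245441: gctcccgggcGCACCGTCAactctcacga
Ggct, chr6:54993023-54993051: caatagaaaaGCGACGTCAgtgggcggga
Gsta3, chr1:21240454-21240482: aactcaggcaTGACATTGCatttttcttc
Gstm5, chr3:107895802-107895830: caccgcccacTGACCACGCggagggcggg
Gstm7, chr3:107931725-107931753: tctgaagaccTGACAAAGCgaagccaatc
Mgst1, chr6:138140461-138140489: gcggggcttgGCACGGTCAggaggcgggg
After exercise the fold changes of these 6 were -0.10 for *Gclm*, -0.07 for *Ggct*, 0.20 for *Gsta3*, 0.0014 for *Gstm5*, 0.02 for *Gstm7* and -0.22 for *Mgst1*, none of them called by edgeR.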

How the data were processed

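Total RNA of 25 *soleus* muscles was depleted of ribosomal RNA and sequenced as stranded 75-bp pairs, 1 library per mouse. The authors deposited whole-number counts per gene, on mm10 with GENCODE release 15, and the submitters' processing notes name FastQC 0.11.5, STAR 2.5.3a and featureCounts 1.5.3. The strand setting of the counting is not given in the sources used here. Per the file headers the table also holds each gene's exon length, used here for RPKM.

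Genes were kept by edgeR's filterByExpr (minimum count 10, minimum total 15) and scaled by TMM. The quasi-likelihood F test of edgeR 4.0.16 in R 4.3.3 was fitted to all 16340 genes, with Benjamini-Hochberg adjustment over all of them and a threshold of 0.05. Genotype, exercise and their interaction were contrasts over the 4 groups, in which mice of both sexes were pooled, and sex contrasts used 8 groups. SE is the fold change divided by the root of F. Mice are the replicates, and no 2 libraries of a group agreed within sampling noise (chi-square per gene at least 14.1 over 67 pairs). Gene IDs were named from a table of IDs and symbols, positions and shared words came from GENCODE release 21, and sequences from RefSeq.

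The members and gene lists were chosen with earlier results of these data known. Members called in any contrast were described in full, with the highest member of each role by level. *Gstm2* by genotype, *Gpx7*, *Gpx1* and the members compared with their neighbours were singled out after their values were seen. Alternatives were no count filter, RLE scaling, DESeq2, limma-voom, sex as a term, each sex alone and each mouse left out. Those printed for *Srxn1*, *Gpx7*, *Gpx1* and *Gstm2* by genotype were chosen after seeing the data. So were those of *Hpgds* and *Gpx8* without mouse 7. The fits were also run on simulated data, but no outcome is given here and no result above rests on it. Reads are not independent molecules, so their number bounds counting error only.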

Additional observations from a re-analysis of the deposited data

Results flagged for a closer look

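In 8 of the 156 combinations of 39 tested members and 4 groups, 1 mouse lay far from the others of its group by Dixon's test at 95%, near the 1 in 20 that chance gives. The value is the gap to the nearest mouse over the range of the group. *Chac1* in WT at rest was 38.1 CPM in mouse 1 against 12.1 in the next (0.842). *Gpx3* in WT at rest was 84.2 CPM in the same mouse, a female, against 42.8 (0.864). *Gsta4* in WT at rest was 23.0 CPM in mouse 14 against 21.3 (0.816), and *Gstz1* 60.2 CPM in mouse 20 against 49.9 (0.828). *Gstp2* in KO at rest was lowest in mouse 21, at 11.1 CPM against 14.7 (0.573). In KO after exercise *Gclc* was 25.6 CPM in mouse 17 against 16.6 (0.753), *Gsta3* 1.47 CPM in mouse 10 against 0.717 (0.667), and *Gstt3* 2.65 CPM in mouse 23 against 1.89 (0.699).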

How the results depend on the processing

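By genotype 0 members were called in the reported fit and 1, *Gstm2*, with DESeq2, with sex as an additive term and in males alone; with 1 mouse left out the count was 0 to 1. With sex as an additive term *Gstm2* was also the 1 member called by genotype at rest and after exercise. After exercise the count of 4 became 2 in males alone and 1 in females alone, and 3 to 4 with a mouse left out. In WT the count of 1 became 0 in males alone and 0 in females alone, and 0 to 1 with a mouse left out (0 without mouse 20). In KO the count of 3 became 0 in females alone and was 3 to 4 with a mouse left out. Each sex alone has fewer mice. The 8 members that differed between the sexes were 4 to 10 with a mouse left out (4 without mouse 20), and DESeq2 gave 12. Of 16 called pairs of member and contrast, 0 reversed, and the call was lost in 40 of 400 refits with a mouse left out and 14 of 88 others. Of 156 group means, 0 moved by over 1 SD without TMM or without mouse 15. Over all genes the genotype calls numbered 44, and 81 with DESeq2, 72 with sex as a term, 23 in males and 6 in females; after exercise 1699, against 966 in males and 512 in females; by sex 1413, against 865 without mouse 20. The genotype calls at rest were 15 (23 with DESeq2, 4 in each sex) and after exercise 18 (28, and 6 in males and 5 in females), exercise calls 587 in WT (207 in males, 186 in females) and 984 in KO (630 and 184), and calls of a sex difference in the response 9 (23 without the filter, 20 with DESeq2, and with a mouse left out 2 without mouse 6, 3 without mouse 3, 4 without mouse 1, 5 without mouse 14 and 17 without mouse 23). Calls of a sex difference in the genotype effect numbered 0, and 2 without mouse 14. The refits of *Srxn1* and of *Gstm2* by genotype, and those of *Gpx7*, *Gpx1*, *Gpx8* and *Hpgds* without mouse 7, were chosen after seeing the data. RLE moved the median fold change of all genes by at most 0.0025 on the log2 scale. No paired analysis was possible because each mouse number occurs in 1 group only. At about 1 CPM, as for *Hpgds*, few reads limit the precision.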
